A study of Mus musculus with 4 samples.

Results

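The 9 genes described here encode the core of the inflammasome and of the interleukin-1 system: the sensor Nlrp3, the adaptor Pycard, the caspases Casp1 and Casp4, the pore protein Gsdmd, the cytokines Il1b and Il18, the receptor antagonist Il1rn and the decoy receptor Il1r2. They were chosen by name from the 31053 genes counted in each library, and each of the 9 symbols matched 1 row. Their unique molecular identifiers (UMIs, 1 per captured transcript molecule) were read in bone marrow mononuclear cells of C57BL/6 mice that lacked Toll-like receptor 9 (TLR9-/-, 2 libraries) or were wildtype (WT, 2 libraries). The study asked what happens in the marrow of mice without TLR9, an endosomal receptor for microbial DNA, in which interleukin-1 is one of the inflammatory cytokines it measured.

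Each library came from 1 mouse, and per the study's methods the mice were profiled in 2 experiments with 1 mouse of each genotype in each. The labels do not say whether library numbers mark those experiments, and age and sex of these 4 mice were not given in the sources used here. Both genotypes were untreated, and the TLR9-/- mice carried the deletion in every cell from birth, so no gene can be assigned to a loss of TLR9 in the cell that expressed it. Femur and tibia marrow had been layered on Ficoll and collected at the interface, a step that holds back dense granulocytes, so the neutrophils here are those that stayed in the light fraction. Values for the 4 libraries are given in the order TLR9-/- 1, TLR9-/- 2, WT 1 and WT 2.

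An inflammasome is a cytosolic complex in which a sensor such as NLRP3 recruits the adaptor ASC, the product of Pycard, which in turn binds and activates caspase-1. Caspase-1 cleaves the precursors of interleukin-1β and interleukin-18 into their active forms and cleaves gasdermin D, whose fragments open pores in the cell membrane. In mice the product of Casp4 binds bacterial lipopolysaccharide directly and cleaves gasdermin D in the non-canonical branch. Interleukin-1 receptor antagonist, from Il1rn, occupies the signalling receptor without activating it, and the receptor encoded by Il1r2 binds interleukin-1 without signalling. Neutrophils, monocytes and macrophages are the main marrow cells known for this pathway, and messenger RNA of Il1b reports only the priming step, since the cytokine is made active by cleavage.

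After filters on genes per cell and mitochondrial share, 39167 of 40545 barcodes were kept (10781, 8918, 10573 and 8895 cells). The libraries differed in depth: the kept cells held 50204578, 63958243, 31210188 and 41384657 UMIs, with a median of 2545, 3618, 1759 and 2287 UMIs a cell. Between any pair of libraries, 118 to 203 cell barcodes were shared. Cells were grouped into 19 classes by markers, with 425 to 637 cells a library left unnamed. The targeted gene, Tlr9, had 41, 48, 120 and 97 UMIs in all cells, or 0.82, 0.75, 3.84 and 2.34 CPM (UMIs of the gene scaled to the same library total, in parts per 1000000). Both TLR9-/- libraries lay below both WT libraries, with Tlr9 transcripts still counted in the former (log2 fold change -1.98, SE 0.35, adjusted p = 0.117 in edgeR's quasi-likelihood test). A replicate here is a mouse, so each genotype has n = 2.

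The promoters of 4 members are shown because the results turn on these genes: Il1b, Il1rn and Il1r2 were highest in mature neutrophils, and Casp4 was the member that passed a test between genotypes. The windows run from 250 bases before to 50 bases after an annotated start, the first one listed for each gene in the promoter table used and not always the most upstream, are written 5′ to 3′ on the gene's own strand, and come from RefSeq (GRCm38.p6). Capitals mark a TATA box in Il1b (chr2:129371090-129371389, minus strand), a STAT motif in Il1r2 (chr1:40085843-40086142, plus strand, a start inside the GENCODE gene), an AP-1 motif in Il1rn (chr2:24336610-24336909, plus strand) and 2 NF-kappaB motifs in Casp4 (chr9:5308599-5308898, plus strand).
Il1b: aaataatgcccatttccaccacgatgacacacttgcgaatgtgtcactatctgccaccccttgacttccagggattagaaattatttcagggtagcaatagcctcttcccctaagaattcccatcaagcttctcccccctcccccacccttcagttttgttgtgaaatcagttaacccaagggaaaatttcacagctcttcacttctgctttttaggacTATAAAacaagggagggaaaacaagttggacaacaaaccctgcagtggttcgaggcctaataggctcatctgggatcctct
Il1r2: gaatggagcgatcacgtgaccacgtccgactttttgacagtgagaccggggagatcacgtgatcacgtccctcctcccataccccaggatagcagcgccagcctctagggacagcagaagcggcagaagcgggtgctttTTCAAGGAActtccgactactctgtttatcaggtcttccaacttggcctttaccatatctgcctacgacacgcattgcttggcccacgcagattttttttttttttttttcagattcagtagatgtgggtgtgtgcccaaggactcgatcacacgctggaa
Il1rn: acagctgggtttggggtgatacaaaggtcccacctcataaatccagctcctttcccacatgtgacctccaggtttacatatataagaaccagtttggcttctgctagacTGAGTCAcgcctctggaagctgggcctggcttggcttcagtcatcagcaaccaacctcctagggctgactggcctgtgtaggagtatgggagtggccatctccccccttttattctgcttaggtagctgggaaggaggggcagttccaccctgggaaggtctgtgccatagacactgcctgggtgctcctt
Casp4: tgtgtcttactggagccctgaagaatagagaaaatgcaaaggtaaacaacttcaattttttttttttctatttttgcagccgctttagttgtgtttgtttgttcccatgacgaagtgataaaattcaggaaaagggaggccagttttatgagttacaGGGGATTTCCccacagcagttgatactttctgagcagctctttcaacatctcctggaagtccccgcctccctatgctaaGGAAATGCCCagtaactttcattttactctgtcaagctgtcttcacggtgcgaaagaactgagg
Each motif was searched on both strands in the 32851 promoter windows of all genes and in the 12 windows of the 8 members found there (Gsdmd was not matched). The NF-kappaB motif (GGG, any 2 bases and TTTCC, or its reverse complement) occurred in 1.63% of all windows and in those of Casp4 and of the later Il1rn starts. The TATA letters TATAAA or their reverse complement were in 13.6% of windows. In Il1b they read TATAAA on the gene's strand, at base -31 from the start. In Il18 (base -175) and a later Il1rn start (base 14) the match was the reverse complement TTTATA, away from the usual place of a TATA box. The STAT letters TTCNNNGAA were in 8.3% of windows and, among members, in Il1r2. The AP-1 letters TGANTCA were in 7.81% and in Il1rn. The C/EBP letters TTNNGCAA (10.8% of windows) and the PU.1 letters GAGGAAGT (3.2%) both occurred in the Pycard window. The searched letters were absent from the windows of Nlrp3 and Casp1. A match is a run of letters and was not tested as a binding site.

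The members divided into those highest in mature neutrophils and those highest in monocytes, macrophages or dendritic cells. Neutrophils were followed through 3 stages named from markers, immature (Camp, Ngp, Ltf), intermediate and mature (Retnlg, Csf3r, Cxcr2). Of the 8 members with at least 40 UMIs in neutrophils, 5 (62.5%) were highest in the mature stage in all 4 libraries, namely Nlrp3, Casp4, Il1b, Il1rn and Il1r2, against 20.6% of the 8598 genes with as many UMIs. Pycard alone among the members was lowest in the mature stage in all 4 libraries (12.4% of all genes were). Casp1 and Gsdmd were highest in the mature stage in 3 of 4 libraries. The classes were built from the same cells, without the members among the genes clustered on, so these levels are a description with no test. CPM is a share of the RNA counted in a class. The median UMIs a cell were 7864 in immature, 2695 in intermediate and 949 in mature neutrophils. A higher CPM in a later stage is therefore not by itself a higher count of molecules a cell.

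**Figure D1:**
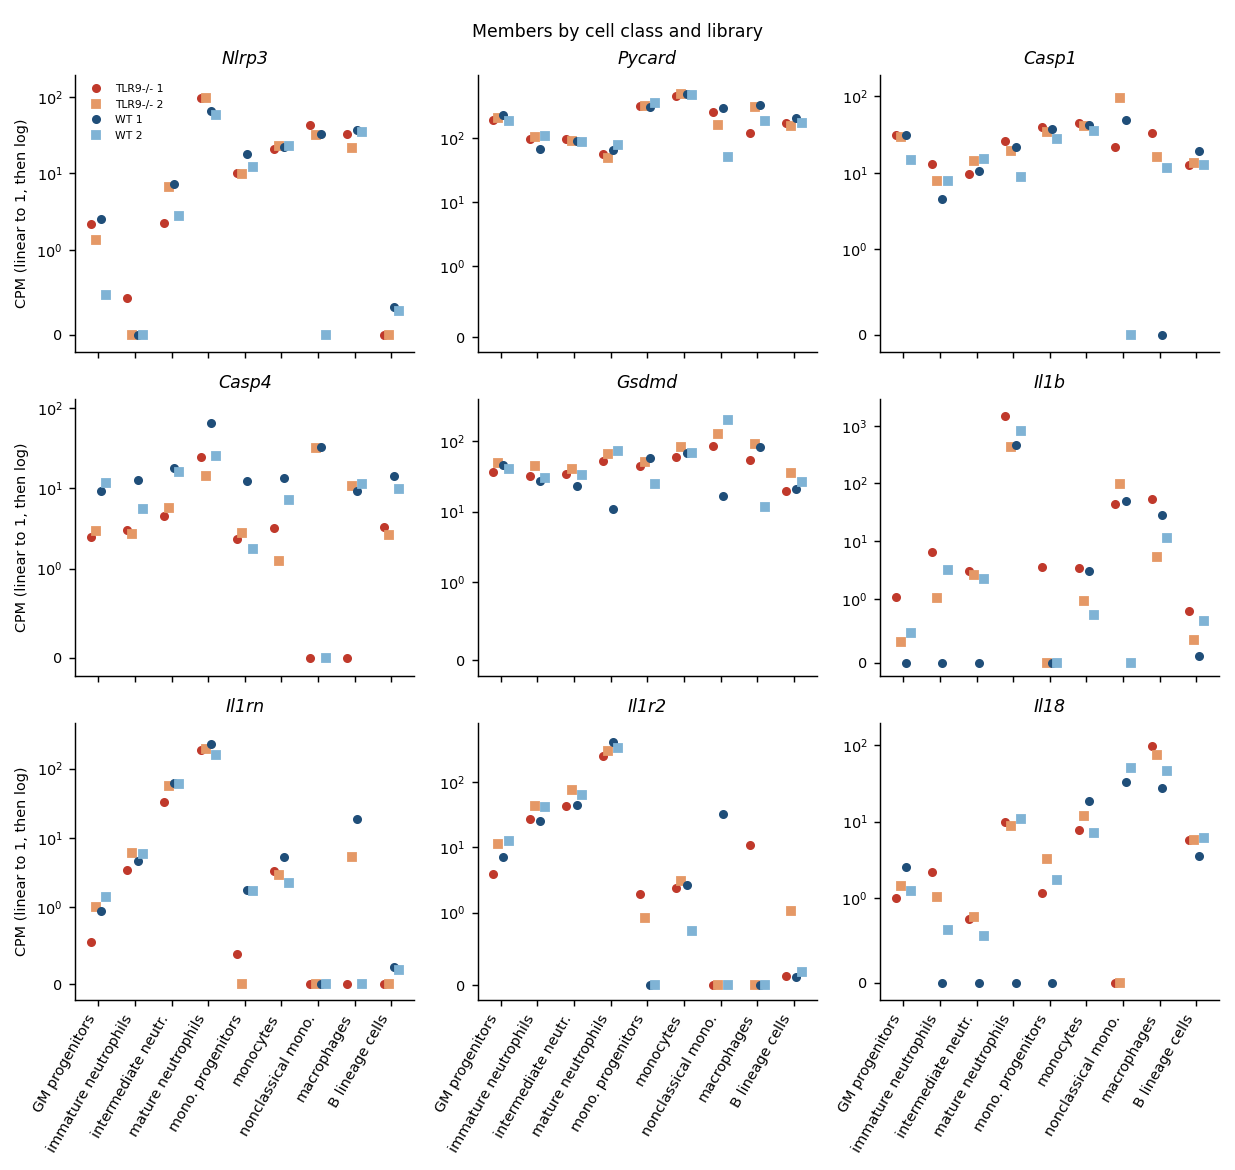
Level of each of the 9 members (CPM of UMIs summed per library and class, on an axis linear up to 1 and logarithmic above) in granulocyte-monocyte progenitors, neutrophil stages, monocyte classes, macrophages and B lineage cells, with 1 point per library, TLR9-/- in red and orange and WT in blue. Il1b, Il1r2 and Il1rn are highest in mature neutrophils (means over 4 libraries of 798, 322 and 191 CPM), and Pycard is highest in monocytes among these classes (473 CPM).

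Nlrp3, the sensor (chromosome 11, 59541568-59566956, plus strand, GRCm38), was nearly silent in immature neutrophils, with 1 UMI over the 4 libraries. It was higher in intermediate neutrophils (2.25, 6.67, 7.36 and 2.78 CPM) and highest in mature neutrophils (98.6, 98.6, 65.8 and 59.0 CPM, from 60, 56, 6 and 33 UMIs). The step from the intermediate to the mature stage exceeded the spread between libraries. Monocytes expressed Nlrp3 at 20.9, 22.8, 22.1 and 23.0 CPM and held 39.6% to 43.9% of each library's Nlrp3 UMIs. Monocyte-committed progenitors lay lower, at 10.2, 9.70, 17.8 and 12.2 CPM, and macrophages overlapped nonclassical monocytes and stood on 14 UMIs. B lineage cells held 6 Nlrp3 UMIs in all.

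Pycard, the adaptor that links sensors to caspase-1 (chromosome 7, 127989708-127993867, minus strand), was lowest in the last of the neutrophil stages. Its level was 98.6, 104, 66.9 and 108 CPM in immature, 96.9, 89.8, 90.5 and 87.4 CPM in intermediate and 57.5, 49.3, 65.8 and 78.7 CPM in mature neutrophils, where each library had its lowest value. The immature and intermediate stages overlapped, and the mature value of WT library 1 rests on 6 UMIs. Monocytes held 449, 484, 493 and 465 CPM and their committed progenitors 312, 320, 302 and 351 CPM, and these classes did not overlap. Conventional dendritic cells had the highest mean (497, 515, 529 and 535 CPM). Plasmacytoid dendritic cells followed monocytes at 413, 441, 373 and 381 CPM. Pycard was also counted throughout the lymphoid classes, with 175, 156, 207 and 171 CPM in B lineage cells and 252, 282, 244 and 234 CPM in T cells, and was the only member with at least 10 UMIs in all 19 named classes.

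Casp1, the effector caspase of the canonical inflammasome, was at 44.7, 40.5, 42.0 and 35.8 CPM in monocytes and overlapped there with monocyte-committed progenitors (39.97, 34.2, 37.3 and 27.8 CPM). Neutrophils were lower, with means over the 4 libraries of 8.31 CPM in immature, 12.4 in intermediate and 19.1 in mature cells, and neighbouring stages overlapped. Granulocyte-monocyte progenitors held 31.7, 29.7, 31.5 and 14.8 CPM, beside 23.8, 22.1, 19.0 and 12.5 CPM in all cells. They held 16.7% to 39.4% of each library's Casp1 UMIs. Their cells were rich in RNA, with a median of 14651, 23729.5, 11952 and 16530.5 UMIs a cell, which also enters that share. Gsdmd, the pore-forming substrate of both caspases (chromosome 15, 75862327-75867408, plus strand), was highest in monocytes among classes with at least 100 UMIs, at 60.4, 82.9, 69.0 and 67.8 CPM. In mature neutrophils it stood at 52.6, 65.1, 10.97 and 73.3 CPM, and the low WT value rests on 1 UMI. Gsdmd in immature (mean 33.6 CPM) and intermediate neutrophils (32.6 CPM) overlapped.

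Il1b (chromosome 2, 129364570-129371139, minus strand) had the largest share of its UMIs in 1 class of any member. Mature neutrophils made up 5.80%, 4.13%, 1.08% and 5.36% of the cells and held 74.6%, 79.2%, 57.3% and 84.3% of the Il1b UMIs. The level there was 1478, 437, 472 and 805 CPM, from 899, 248, 43 and 450 UMIs. Immature neutrophils reached at most 6.54 CPM, intermediate neutrophils 3.003 CPM and monocytes 3.39 CPM. Nonclassical monocytes (8 UMIs in all) and macrophages (54.7, 5.39, 27.8 and 11.5 CPM from 10 UMIs) were the next classes, both with too few molecules to order. Unnamed cells of TLR9-/- library 1 held a further 196 Il1b UMIs (48.4 CPM, against 3.78, 4.33 and 11.5 CPM in the other libraries).

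Within mature neutrophils Il1b was counted in a part of the cells. At least 1 Il1b UMI was found in 350 of 625, 106 of 368, 30 of 114 and 194 of 477 cells, or 56.0%, 28.8%, 26.3% and 40.7%, at a median of 815, 1407.5, 716.5 and 1028 UMIs a cell. After cells were thinned to 1000 UMIs, which left out 448, 90, 90 and 226 shallower cells, the share was 41.8% (95% exact binomial interval 34.5 to 49.4), 17.6% (13.3 to 22.6), 16.7% (4.74 to 37.4) and 31.5% (25.8 to 37.6). B lineage cells, which serve as the background of free RNA, had shares of 0.0479%, 0.0496%, 0.0339% and 0.113% at the same depth and of 0.0945%, 0.0459%, 0.0199% and 0.167% before thinning, where their median was 1210, 1717.5, 1122 and 1515 UMIs. The tenth of mature neutrophils with the most Il1b held 40.2%, 67.3%, 58.1% and 48.7% of it, and the highest cell in each library had 11, 16, 4 and 11 UMIs. The same measure was 60.1%, 49.4%, 59.5% and 55.4% for Il1r2 and 65.2%, 54.1%, 66.7% and 66.3% for Il1rn. Both had fewer UMIs than Il1b in each library, and sparse counts alone raise this measure. Whether Il1b was less evenly spread than other genes was not tested. Intervals and limits on counts cover counting error only.

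**Figure D2:**
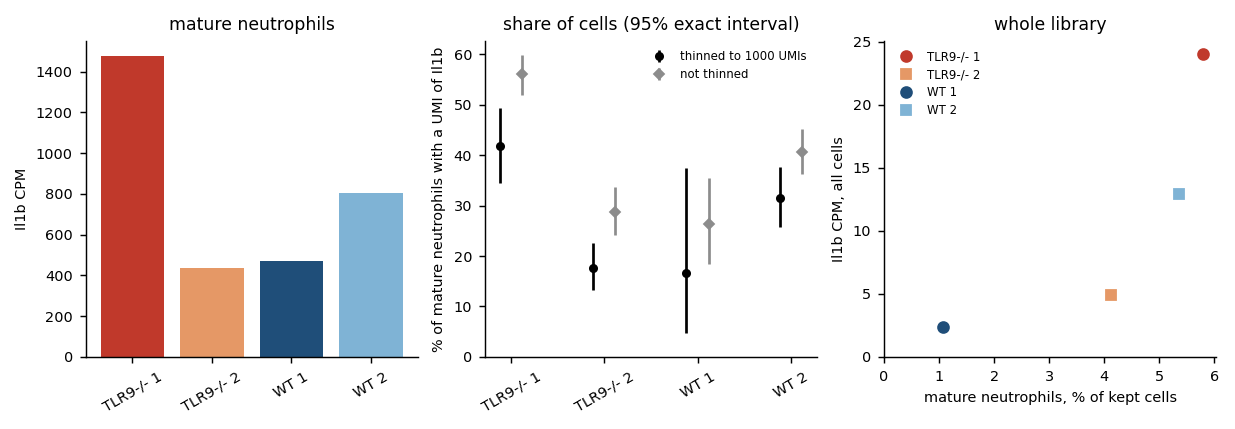
Il1b in each library: CPM in mature neutrophils (bars), the share of mature neutrophils with at least 1 Il1b UMI thinned to 1000 UMIs (black) and not thinned (grey) with 95% exact binomial intervals, and CPM in all cells against the share of mature neutrophils among cells. TLR9-/- library 1 (1478 CPM, 41.8% of cells) is the highest and TLR9-/- library 2 (437 CPM, 17.6%) is close to WT library 1 (472 CPM, 16.7%).

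Il1rn and Il1r2, which both restrain interleukin-1, were already counted in stages that held little Il1b. Il1rn lies on chromosome 2 (24336853-24351494) and Il1r2 on chromosome 1 (40074079-40125231), both on the plus strand. Il1rn had 3.49, 6.10, 4.61 and 5.87 CPM in immature, 33.0, 56.2, 62.1 and 60.1 CPM in intermediate and 184, 192, 230 and 159 CPM in mature neutrophils. The 3 stages did not overlap, and outside neutrophils the highest mean was in stromal cells, at 107, 187, 124 and 28.0 CPM from 40 UMIs. Il1r2 had 27.0, 43.4, 25.4 and 41.4 CPM in immature, 43.5, 75.9, 44.2 and 64.0 CPM in intermediate and 251, 299, 406 and 333 CPM in mature neutrophils. In CPM, both genes were higher at each of the 2 steps in all 4 libraries, as were Nlrp3 and Casp4, whereas Il1b was so in 1 library. Over all genes with at least 40 UMIs, 11.1% were higher at both steps in every library. The stages held 1047 immature, 2657 intermediate and 1584 mature cells. Their summed UMIs, in that order, were 346, 511 and 546 for Il1r2 and 49, 430 and 331 for Il1rn. For Nlrp3 they were 1, 41 and 155, and for Casp4 44, 74 and 43. Over the pooled cells, UMIs a cell of Casp4 and Il1r2 were thus lower in the intermediate than in the immature stage. Those of Casp4 were also lower in the mature than in the immature stage, whereas those of Nlrp3 and Il1rn were higher at each step. These differences in UMIs a cell were not tested. In monocytes Il1r2 was at most 3.04 CPM and Il1rn at most 5.25 CPM.

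After thinning to 1000 UMIs, 20.3%, 21.6%, 20.8% and 28.7% of mature neutrophils had an Il1r2 UMI and 16.4%, 17.6%, 29.2% and 11.95% had one of Il1rn. Thinning had left out most of the 114 mature neutrophils of WT library 1, so its shares rest on few cells. In B lineage cells the shares of Il1r2 and Il1rn were at most 0.0496% and 0.0339%. Il18, the other cytokine that caspase-1 processes (chromosome 9, 50554827-50581840, plus strand), was highest in macrophages (98.4, 75.5, 27.8 and 45.8 CPM from 9, 14, 3 and 4 UMIs) and was at 7.64, 11.9, 18.4 and 7.16 CPM in monocytes. Mature neutrophils held 17 Il18 UMIs in all. The macrophage class was small (41, 58, 53 and 48 cells) and also carried markers of other cells. The summed erythroid list stood at 1260 to 13632 CPM and the B lineage list at 1331 to 5657 CPM, against 2897 to 4977 CPM for the macrophage list. The monocyte list stood at 11395 to 18738 CPM and the mature neutrophil list at 2222 to 4041 CPM. The conventional dendritic cell list stood at 9563 to 27816 CPM, but it includes H2-Aa, H2-Ab1, H2-Eb1 and Cd74, which other cells carry too. The study itself used H2-Aa to name macrophages. The part of other cells in the member levels of this class was not tested.

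**Figure D3:**
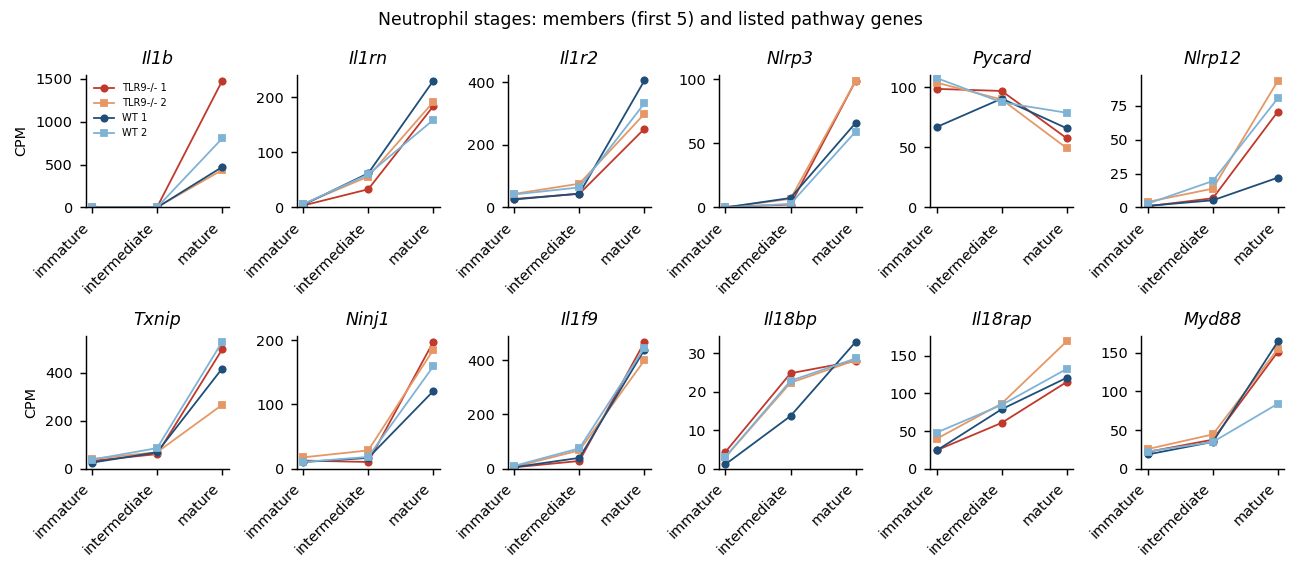
Level (CPM, linear axes that differ between panels) of 5 members, Il1b, Il1rn, Il1r2, Nlrp3 and Pycard, and of 7 other pathway genes along immature, intermediate and mature neutrophils, with 1 line per library. Il1rn, Il1r2 and Nlrp3 are higher at each step in 4 of 4 libraries, and Pycard ends at its lowest value in 4 of 4.

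For the genotype comparison, UMIs were summed per library and class and tested with edgeR's quasi-likelihood test, with p-values adjusted over all genes tested by the Benjamini-Hochberg method and a threshold of 0.05. Casp4 was lower in TLR9-/- in each class in which it was tested, with log2 fold changes from -2.18 in monocytes to -0.72 in mature neutrophils. In mature neutrophils the fold changes of Casp1 and Nlrp3 were larger in size and positive. Casp1 there had 26.3, 19.4, 21.9 and 8.94 CPM from 16, 11, 2 and 5 UMIs, with the groups overlapping (log2 fold change 1.08, SE 0.63, adjusted p = 1.00, edgeR). No member passed the test in neutrophil stages, monocyte-committed progenitors, monocytes, macrophages or all cells together, and Casp4 passed it in granulocyte-monocyte progenitors, a class tested after the data were seen. The Il1b values of the genotypes overlapped in mature neutrophils and in all cells. With 2 mice against 2, an exact permutation test of a single value cannot go below p = 0.33.

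Read against the background of all genes, these counts were as follows. In immature neutrophils 0 of 6 tested members passed (0.365% of 7663 genes did), in intermediate neutrophils 0 of 7 (0.383% of 5739) and in mature neutrophils 0 of 8 (0.149% of 4030). In monocyte-committed progenitors 0 of 4 passed (0.116% of 7774), in monocytes 0 of 9 (0.485% of 9898) and in all cells 0 of 9 (0.268% of 14194). Macrophages had enough counts for 1 member, Pycard, which did not pass (0% of 1439 genes did, and 68 of them had an unadjusted p under 0.05). In the classes added later, 0 of 5 passed in B lineage cells (0.279% of 11106) and 1 of 7 in granulocyte-monocyte progenitors (0.473% of 10788). Members with too few counts in a class were not tested there, and nonclassical monocytes (33, 16, 42 and 18 cells) were too few to test.

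Without adjustment, 1 member each in immature neutrophils, intermediate neutrophils and monocytes had a p under 0.05, which was Casp4 each time, beside 6.47%, 5.54% and 6.27% of all genes. In mature neutrophils it was Nlrp3 (4.39% of genes), and in monocyte-committed progenitors (6.14%) and macrophages (4.73%) it was 0 members. In all cells 3 of 9 did, Casp4, Nlrp3 and Gsdmd, beside 17.1% of genes. Casp4 was again the 1 member in B lineage cells (5.53% of genes) and in granulocyte-monocyte progenitors (9.99%). DESeq2, run on the same sums, called Casp4 in all cells, where it called 5.83% of all genes, in B lineage cells (0.363%) and in granulocyte-monocyte progenitors (0.624%). It called 0 members in immature (0.121%), intermediate (0.148%) and mature neutrophils (0.0509%), monocyte-committed progenitors (0.06%), monocytes (0.528%) and macrophages (0%).

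The median log2 fold change over tested members was 0.09, 0.13 and 0.11 in the 3 neutrophil stages and -0.03 in monocytes, beside a median over all genes of 0.00, -0.03, 0.01 and 0.00. In all cells it was 0.19, beside -0.02 over all genes.

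**Figure D4:**
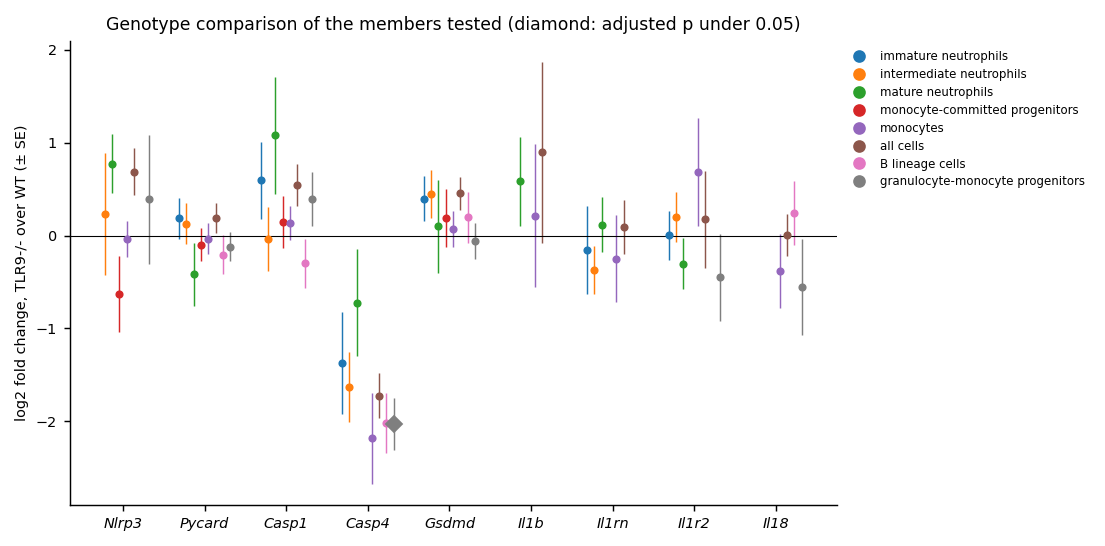
Log2 fold change (TLR9-/- over WT, bars are SE) of each tested member from edgeR's quasi-likelihood test, coloured by class, without macrophages, where only Pycard was tested; a diamond marks an adjusted p under 0.05. Casp4 lies below 0 in each class in which it was tested (-2.18 in monocytes, -0.72 in mature neutrophils), and its value in granulocyte-monocyte progenitors (-2.03) is the only diamond. It was not tested in monocyte-committed progenitors.

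Casp4 was lower in the TLR9-/- libraries in most of the marrow. In all cells it had 154, 154, 316 and 327 UMIs, or 3.07, 2.41, 10.1 and 7.90 CPM, and the groups did not overlap (log2 fold change -1.72, SE 0.24, adjusted p = 0.0865, edgeR). Granulocyte-monocyte progenitors had 2.46, 2.98, 9.23 and 11.7 CPM from 27, 56, 29 and 75 UMIs, and Casp4 fell there by 2.03 on the log2 scale (SE 0.28, adjusted p = 0.0212, edgeR). Without WT library 2 that adjusted p was 0.242. In the same class the summed B lineage list stood at 273, 246, 447 and 514 CPM (15 of 15 genes with UMIs), the erythroid list at 188, 209, 341 and 264 CPM (12 of 12) and the conventional dendritic cell list at 164, 198, 279 and 252 CPM (9 of 10), both TLR9-/- values below both WT values in each. So were the mature neutrophil list, at 639, 727, 791 and 806 CPM (11 of 11), and the macrophage list, at 68.7, 98.3, 112 and 118 CPM (11 of 11). The hematopoietic stem and progenitor cell list, at 251, 201, 188 and 131 CPM (10 of 10), went the other way. The immature neutrophil list, at 6200, 11868, 10564 and 21196 CPM (11 of 11), overlapped. The dendritic list includes H2-Aa, H2-Ab1, H2-Eb1 and Cd74, which B cells carry too. The part of the cells on these lists in the Casp4 level was not tested. These progenitors give rise to both neutrophils and monocytes.

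The same direction was seen in lymphoid and more mature myeloid cells. B lineage cells had 3.35, 2.63, 14.4 and 9.92 CPM of Casp4 (log2 fold change -2.02, SE 0.33, adjusted p = 0.0629, edgeR), and monocytes had 3.25, 1.25, 13.5 and 7.16 CPM (-2.18, SE 0.49, adjusted p = 0.139). Intermediate neutrophils had 4.51, 5.64, 17.9 and 16.1 CPM (-1.63, SE 0.37, adjusted p = 0.151), immature neutrophils 3.05, 2.71, 12.7 and 5.57 CPM. In mature neutrophils, where Casp4 was highest, the values were 24.7, 14.1, 65.8 and 25.05 CPM from 15, 8, 6 and 14 UMIs, so that TLR9-/- library 1 and WT library 2 nearly met (-0.72, SE 0.57, adjusted p = 1.00). That value was -0.30 without WT library 1, -0.46 without TLR9-/- library 2, -1.11 without TLR9-/- library 1 and -1.65 without WT library 2. In immature neutrophils the log2 fold change of -1.37 became -0.89 without WT library 1 and -2.20 without WT library 2. Plasmacytoid dendritic cells had 0 and 0 UMIs in TLR9-/- and 11 and 8 in WT. With 3 counts over the TLR9-/- group taken as the limit of a count of 0 (0.804 CPM), the pooled WT value of 7.61 CPM was 9.47-fold higher. Counting error of the WT UMIs is not part of that figure.

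Both TLR9-/- libraries lay below both WT libraries for Casp4 in 12 of the 13 named classes with at least 10 UMIs. The exception was monocyte-committed progenitors (2.35, 2.77, 12.4 and 1.74 CPM), where WT library 2 held 1 UMI. The corresponding counts of classes with TLR9-/- below, or above, WT were 3 and 2 of 10 for Nlrp3, 3 and 2 of 19 for Pycard, 1 and 2 of 15 for Casp1 and 0 and 6 of 17 for Gsdmd. They were 0 and 1 of 9 for Il1b, 1 and 0 of 7 for Il1rn, 2 and 1 of 8 for Il1r2 and 0 and 2 of 11 for Il18. Over all genes tested, the groups did not overlap, in either direction, for 32.7% in mature neutrophils and 35.8% in monocytes. Counts of classes were not made over all genes. Classes of 1 library share a mouse, so these counts are not independent.

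**Figure D5:**
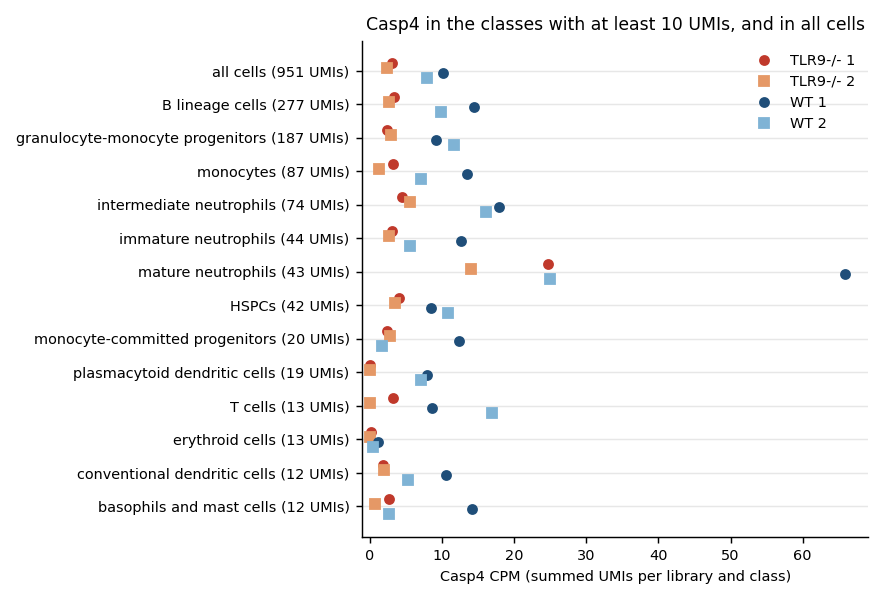
Casp4 level (CPM of summed UMIs, linear axis) in all cells and in each of the 13 named classes with at least 10 Casp4 UMIs, 1 point per library, TLR9-/- in red and orange and WT in blue. Both TLR9-/- points lie below both WT points in 12 of 13 classes, among them granulocyte-monocyte progenitors (2.46 and 2.98 against 9.23 and 11.7 CPM).

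Casp4 lies on chromosome 9 at 5308828-5336783 (plus strand), between Casp1 (5298517-5307265) and Casp12, a relative of the inflammatory caspases. Tlr9, the deleted gene, lies on the same chromosome at 106222598-106226883, 100.9 Mb away. In all cells Casp1 had 23.8, 22.1, 19.0 and 12.5 CPM, both TLR9-/- values above both WT values, and Casp12 had 23, 18, 18 and 12 UMIs with the groups overlapping. The genes Aasdhppt, Kbtbd3 and Msantd4, which lie within 1 Mb before Casp4, had 39.96, 36.7, 33.4 and 27.3 CPM, 16.8, 13.3, 14.995 and 12.3 CPM, and 7.07, 5.88, 4.90 and 5.85 CPM. Among the counted genes within 1 Mb, Pdgfd, with 1, 2, 5 and 14 UMIs, was the other gene with both TLR9-/- values below both WT values. Whether transcripts of Casp4 differed in sequence between the genotypes was not tested.

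Il1b in mature neutrophils averaged 957 CPM (SD 736, n = 2) in TLR9-/- and 638 CPM (SD 236, n = 2) in WT. The higher TLR9-/- mean came from library 1, since library 2 had the lowest of the 4 values, and the groups overlapped (log2 fold change 0.58, SE 0.48, adjusted p = 1.00, edgeR). Which library was lowest depended on the bounds of the class. In the cluster that held most of its cells at Leiden resolution 2, the values were 1522, 517, 507 and 894 CPM, with WT library 1 lowest. Without TLR9-/- library 1 the log2 fold change in the whole class was -0.42. In all cells the values were 24.0, 4.89, 2.40 and 12.9 CPM (0.90, SE 0.97, adjusted p = 0.670), or -0.64 without that library. Markers of other cells differed between libraries within the class: the summed erythroid list stood at 2252, 185, 1503 and 1751 CPM and the immature neutrophil list at 6085, 9414, 5287 and 9172 CPM, while the mature list was at 59816, 61919, 67830 and 66924 CPM. Their part in the Il1b levels was not tested.

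The share of mature cells among neutrophils was 45.6%, 20.9%, 15.9% and 33.0%, in no order of genotype, so that any sum over all neutrophils or all cells also carries this mix. In sums over many cells, more cells of a type and more RNA per cell cannot be told apart. Shares of other classes did follow genotype. B lineage cells made up 29.44%, 24.42%, 47.43% and 47.25% of all cells, and monocytes 11.94%, 13.03%, 6.05% and 6.08%. Granulocyte-monocyte progenitors made up 6.81%, 8.54%, 2.46% and 4.36%. The part of these class shares in the values of the members in all cells was not tested. For Nlrp3, the higher level in TLR9-/- mature neutrophils (98.6 and 98.6 against 65.8 and 59.0 CPM) gave a log2 fold change of 0.78 (SE 0.32, adjusted p = 1.00, edgeR), with 6 UMIs in WT library 1. In monocytes the same gene differed by -0.04 (SE 0.20).

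By the plain criterion that the values of the groups do not overlap, 4 of 8 tested members qualified in mature neutrophils, with Nlrp3 higher and Pycard, Casp4 and Il1r2 lower in TLR9-/-, beside 32.7% of all genes tested. In monocytes Casp4 alone did, 1 of 9 beside 35.8% of genes. In all cells 5 of 9 did, Casp4 lower and Nlrp3, Pycard, Casp1 and Gsdmd higher, beside 51% of genes. The shares in mature neutrophils and all cells are thus near the background. Among members with Casp4 set aside, the lowest adjusted p by edgeR was 0.851 in immature, 0.926 in intermediate and 1.00 in mature neutrophils, 0.889 in monocytes and 0.268 in all cells.

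Whether the genotype difference itself differed between neutrophils and monocytes was tested as an interaction, with the neutrophil stages summed, the monocyte classes summed and the library as a term. None of the 9 members passed, against 0.565% of 10439 genes. 1 member, Nlrp3, had an unadjusted p under 0.05 (8.53% of genes did), with a TLR9-/- to WT difference that was 1.12 higher in neutrophils on the log2 scale (SE 0.32, adjusted p = 0.149, edgeR), and it passed without TLR9-/- library 2 (adjusted p = 0.0223). For Il1b the difference was 1.07 (SE 0.67, adjusted p = 0.733) and for Casp4 0.78 (SE 0.41, adjusted p = 0.648). The neutrophil sums contain the unequal stage mix given above, and its part in these values was not tested.

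A list of 42 further inflammasome and interleukin-1 genes, 2 of which had no UMI, showed a like order over the neutrophil stages. Of the 24 with at least 40 UMIs in neutrophils, 14 (58.3%) were highest in the mature stage in all libraries, against 20.6% of all genes with as many UMIs. Between genotypes, 0 of 21, 1 of 22 and 0 of 16 tested list genes passed in immature, intermediate and mature neutrophils, 0 of 24 in monocyte-committed progenitors, 0 of 27 in monocytes, 0 of 4 in macrophages and 0 of 38 in all cells. In the classes added later 0 of 22 passed in B lineage cells and 1 of 30 in granulocyte-monocyte progenitors. The shares over all genes are those given for the members, with 0.383% in intermediate neutrophils and 0.473% in granulocyte-monocyte progenitors. All passing genes were lower in TLR9-/-, and each was Naip5.

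Naip5, a sensor that recognises bacterial flagellin with Nlrc4, had 1, 6, 13 and 24 UMIs in intermediate neutrophils (0.751, 1.54, 13.7 and 13.4 CPM) and fell there by 3.27 on the log2 scale (SE 0.53, adjusted p = 0.0375, edgeR). It also fell by 1.84 in granulocyte-monocyte progenitors (SE 0.25, adjusted p = 0.0212). The first call was lost without WT library 1 (adjusted p = 0.194), without WT library 2 (0.972) and in DESeq2 (0.220), and the second without WT library 2 (0.152). Monocytes had 22.3, 23.4, 35.3 and 43.7 CPM, lower in both TLR9-/- libraries without passing the test (adjusted p = 0.228). Naip5 lies on chromosome 13 at 100211739-100246323 beside its close relatives Naip2 and Naip6, and its count is uncertain, since how reads divide among the 3 genes was not measured. Naip2 in monocytes was at 33.0, 42.5, 40.5 and 61.0 CPM.

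Among the other sensors Nlrp12 was a mature neutrophil gene, at 70.7, 93.3, 21.9 and 80.5 CPM. Of the genes that act on activation and assembly, Txnip, which binds NLRP3, had 496, 266, 417 and 528 CPM in mature neutrophils. Of the other caspases Casp8, an initiator of apoptosis, was highest in macrophages (mean 131.8 CPM) and had 78.2 CPM in monocytes. Ninj1, which ruptures the membrane after gasdermin pores form, had 197, 185, 121 and 159 CPM in mature neutrophils.

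The cytokine group was led by Il1f9, the gene of interleukin-36γ, which had 467, 400, 439 and 446 CPM in mature neutrophils and a mean of 1.29 CPM in monocytes. Il1a had no UMI in neutrophils. Il18bp, a secreted trap for interleukin-18, averaged 29.4 CPM in mature neutrophils, and Il18rap, a chain of the interleukin-18 receptor, had 115, 169, 121 and 132 CPM. Myd88, the adaptor shared by interleukin-1 and Toll-like receptors, had 151, 155, 164 and 84.1 CPM in mature neutrophils. None of these genes passed the test between genotypes in that class.

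The genes most like each member were sought by Pearson correlation of log2(CPM + 1) over the 76 sums of 4 libraries and 19 classes, among 7817 genes with a mean of at least 10 CPM. The sums of a library share a mouse and a depth, so r is a description. Il1r2 was most like Asprv1 (r = 0.87) and Stfa1 (r = 0.86). Il1rn was most like H2-Q10 (r = 0.76) and Lrg1 (r = 0.76), and next most like Il1f9 (r = 0.76). Il1b was most like Gm5150 (r = 0.73) and Sirpb1b (r = 0.69), and Nlrp3 was close to Wfdc17 (r = 0.79) and Ccl6 (r = 0.78).

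The members of monocyte and dendritic classes had other neighbours. Pycard was most like Psme2 (r = 0.78), Gsdmd most like Fam49b and Lcp1 (both r = 0.79) and Casp1 most like Map2k1 (r = 0.61). Il18 was most like C1qc (r = 0.67), a macrophage complement gene. For Casp4 no gene exceeded r = 0.54 (Antxr2). Between members themselves, Il1rn and Il1r2 (r = 0.55), Nlrp3 and Il1b (r = 0.55) and Il1b and Il1rn (r = 0.51) were the closest pairs, and Pycard ran against Il1rn (r = -0.46).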

How the data were processed

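Single-cell 5′ libraries of 2 TLR9-/- and 2 WT mice were made on the 10x Chromium platform. The authors deposited UMI counts per gene and cell for each library, from Cell Ranger 3.0.1 per the file headers, with the mm10 genome, before depth was equalised between libraries; Seurat 2.3.4 is named in the submitters' processing notes. Gene and barcode names were deposited beside the counts, and no column was left unused. The members, the list of further pathway genes and the classes tested were chosen with earlier results of these data known.

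Cells with under 200 or over 10000 genes, or over 10% mitochondrial UMIs, were removed (the methods print the mitochondrial limit as a smaller value, read here as 10%). Cells were clustered with scanpy 1.11.5 (2000 variable genes without the members and listed genes, 30 principal components, 15 neighbours, Leiden resolution 1) and named from marker lists, so class names may differ from the study's. Scrublet, through scanpy, marked 1733 cells as doublets. Its own threshold was used except in WT library 2, where that threshold marked under 0.5% of cells. There the 631 cells with the highest scores were marked, at the expected rate. Cells marked as doublets were kept in the sums, left out in an alternative, and clusters with over 25% of them were not named. Thinning drew 1000 UMIs a cell, intervals are 95% exact binomial (Clopper-Pearson), and the limit of a count of 0 is 3 counts.

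UMIs summed per library and class were tested with edgeR 4.0.16 (TMM, filterByExpr, quasi-likelihood, two-sided) in classes with at least 20 cells in every library, after a check of the code on simulated counts. DESeq2 1.42.0 and other settings were alternatives. Named genes are the 9 members, any listed gene that passed, and the highest of each role in neutrophils, monocytes or macrophages. Gene positions are from GENCODE (GRCm38) and promoters from RefSeq, where 8 of 9 members matched. 1 gene among those most like a member is not reported here. Nothing says whether mice of 1 genotype were littermates. The p-values weigh a difference against the variation between libraries of a genotype, in which mouse, experiment and library preparation cannot be told apart.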

Additional observations from a re-analysis of the deposited data

Results flagged for a closer look

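Of the 31 listed genes tested for a difference between cell types, 1 passed, Naip5, beside 0.565% of 10439 genes. Naip5 had 87 UMIs over the neutrophil stages and was lowest in the mature stage in 3 of 4 libraries. The part of the unequal mix of neutrophil stages in its value was not tested. The TLR9-/- to WT difference of Naip5 was lower in neutrophils than in monocytes by an interaction of -1.83 on the log2 scale (SE 0.42, adjusted p = 0.0400, edgeR's quasi-likelihood test). Leaving out 1 library at a time gave adjusted p-values from 0.0136 to 0.0614, the highest without TLR9-/- library 1, and the adjusted p was 0.213 with library number as a replicate block in place of the library. The gene was lower in both TLR9-/- libraries in intermediate neutrophils and in monocytes. In B lineage cells, outside this contrast, its log2 fold change was -3.23 (SE 0.64, adjusted p = 0.141, edgeR). It was -2.36 in immature neutrophils (SE 0.57, adjusted p = 0.111) and -1.14 in monocyte-committed progenitors (SE 0.41, adjusted p = 0.719). Reads of Naip5 may be split with Naip2 and Naip6.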

How the results depend on the processing

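With library number as a replicate block, 1 member, Casp4, passed in monocytes, in all cells and in B lineage cells, and 0 passed in the interaction, where the block took the place of the library. Deviations from the group means correlated at 0.11 to 0.34 between same-numbered libraries over the 9 tested groups of cells, with only 2 pairs and no label that ties the numbers, so the block was not used elsewhere. Casp4 was also the call added by other settings: without a filter on low counts 1 member passed in intermediate neutrophils, all cells and B lineage cells, and with DESeq2 1 passed in all cells and B lineage cells. Leaving out 1 library at a time gave 0 to 1 members in intermediate neutrophils, monocytes, B lineage cells and the interaction, 0 to 2 in granulocyte-monocyte progenitors (Casp4 and Il1r2 without TLR9-/- library 2, 0 without WT library 2) and 0 elsewhere. The interaction calls were Nlrp3 without TLR9-/- library 2 and Il1b without WT library 2. Where 1 library stood alone it was assumed to vary like the others. Il1b changed sign without TLR9-/- library 1, with log2 fold changes from -0.42 to 1.16 over these settings in mature neutrophils and from -0.64 to 2.58 in all cells. The Casp4 log2 fold change stayed below 0 in every class tested and every alternative run there (-2.18 to -1.78 in granulocyte-monocyte progenitors, -1.89 to -1.53 in all cells, -3.03 to -1.65 in monocytes, -2.20 to -0.89 in immature and -1.65 to -0.30 in mature neutrophils), and the adjusted p in the first 3 ranged from 3.88e-09 to 0.242, 1.82e-06 to 0.166 and 0.000141 to 0.808. The median share of mature neutrophils with a UMI of a member was 5.40% at 1000 UMIs, 3.42% at 500 and 6.89% without thinning. With a pseudocount of 10 in place of 1, 15 of the 27 most similar genes were kept. Counts over all genes moved most: 28 in immature neutrophils ranged from 11 to 130, 22 in intermediate from 5 to 93, 6 in mature from 0 to 38, 9 in monocyte-committed progenitors from 0 to 79, 48 in monocytes from 8 to 199, 0 in macrophages from 0 to 23, 38 in all cells from 37 to 1165, 31 in B lineage cells from 24 to 384, 51 in granulocyte-monocyte progenitors from 25 to 722 and 59 in the interaction from 10 to 134. The cause of these changes was not tested. No test was run in nonclassical monocytes. Depth limits Casp4 and Nlrp3 in mature neutrophils, where WT library 1 held 6 UMIs of each.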

Other observations

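Outside the myeloid classes, the antagonist gene Il1rn was counted in stromal cells (18, 17, 13 and 16 cells in the order TLR9-/- 1, TLR9-/- 2, WT 1 and WT 2), with 9, 21, 7 and 3 UMIs. Il18 was spread thinly over lymphoid and progenitor classes: B lineage cells had 5.75, 5.78, 3.52 and 6.08 CPM and hematopoietic stem and progenitor cells 8.26, 10.8, 8.51 and 7.51 CPM, and in both the genotypes overlapped. Megakaryocytes held 18 Il1b UMIs in all (12, 3, 0 and 3).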
